A study of Mus musculus with 15 samples.

Results

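The module described here holds 34 mouse genes of the p53 pathway and the DNA damage response, chosen by symbol: Trp53, which encodes p53, and genes that p53 is known to activate or that act around it. All 34 were found among the 24965 genes of the authors' deposited table of genotype results, each on a single row. They are taken by role: 5 of the core and its feedback, 7 of cell cycle arrest, 12 of apoptosis, 4 of DNA repair, 4 of metabolism and redox control, and 2 of the cell surface.

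Liver RNA was sequenced from male C57BL/6J mice, 9 weeks old, that all carried floxed Gata4 alleles (Gata4fl/fl), Gata4 being a zinc finger transcription factor of the liver. The compared groups are 4 fasted livers labelled Gata4LKO, from mice given AAV8-Tbg-Cre, and 4 fasted control livers, from mice given an empty AAV8. AAV8 is an adeno-associated virus that enters the liver, and the Tbg promoter restricts Cre to hepatocytes, so other liver cells keep their floxed alleles. The virus was given at 8 weeks of age and livers were collected 7 days later, after a fast of 12 h. The authors' model also took in 3 Gata4LKO and 4 control livers refed for 12 h with a high-sucrose diet, which are not compared here. Controls received no Cre, so Cre itself and the loss of Gata4 cannot be told apart. Sample titles within a group share a number, so a shared cage, litter or handling would coincide with the group.

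p53 is a transcription factor that is kept low in unstressed cells, because Mdm2 marks it for destruction, and that accumulates after DNA damage, ribosomal stress or oncogene activity. It binds pairs of a short half-site and turns on genes that halt division, trigger apoptosis, aid repair, or, like Mdm2, switch p53 off again. In liver it is best known for limiting hepatocyte division after damage, and its targets also touch lipid and redox metabolism.

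The deposited table gives, per gene, a mean normalized count over the 15 libraries and a log2 fold change (Gata4LKO minus control, fasted livers) with its standard error (SE). It holds no values per liver, so levels of single livers and overlap of the groups are not given, and every level is a mean that includes refed livers. Depth differed little among libraries, whose relative size factors were 0.912 to 1.11, and the means of all genes summed to 1.80e+07 normalized counts. A gene was called when the authors' adjusted p (DESeq2 Wald test, Benjamini-Hochberg) was under 0.05, which here took a change of at least 3.27 SE. "Higher" and "lower" follow the labels of the livers and rest on how the table was read, as explained with its processing. Gata4 itself was not lower. Its log2 fold change was 0.31 ± 0.15 (SE, the authors' deposited table), with an adjusted p of 0.361 (DESeq2). The floxed exons are not named in the labels, so reads summed over the gene cannot check a deletion of part of it.

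Of the 34 members, 31 had an adjusted p, and Ckap2, Pmaip1 and Dram1 had none because their means were low. Among the 31, 5 were higher in livers labelled Gata4LKO, namely Eda2r, Aen, Ccng1, Zmat3 and Mdm2. Cd82 was lower, and 25 were not called. The members called amount to 19.4% of those tested, against a background of 2.19% of all 13335 tested genes, and 0.585% of all tested genes were called higher and 1.60% lower. The median log2 fold change of the 31 was 0.07, beside 0.01 over all tested genes, and 61.3% of their estimates lay above 0, beside 51.9% of all tested genes. At an unadjusted p under 0.05 stood 8 members, 7 higher and 1 lower, or 25.8%, where all tested genes gave 11.4% in either direction, 5.17% higher and 6.21% lower. The number of members called under other rules, beside the share of all genes tested by that rule, was 6 and 0.894% when the adjustment took in untested genes with a p, 6 and 2.29% at means of 10 or more, 5 and 2.83% at means of 100 or more, and 6 and 2.26% among protein coding genes. It was 7 and 3.25% at an adjusted p under 0.1, 2 and 1.18% when a fold of at least 1.5 was also asked, and 3 and 0.952% with the Benjamini-Yekutieli adjustment. The list was chosen with these results known, so the shares describe it and do not test it. In RNA of whole liver, a lower value can come from fewer cells of a type or from less RNA per cell, and these cannot be told apart.

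**Figure D1:**
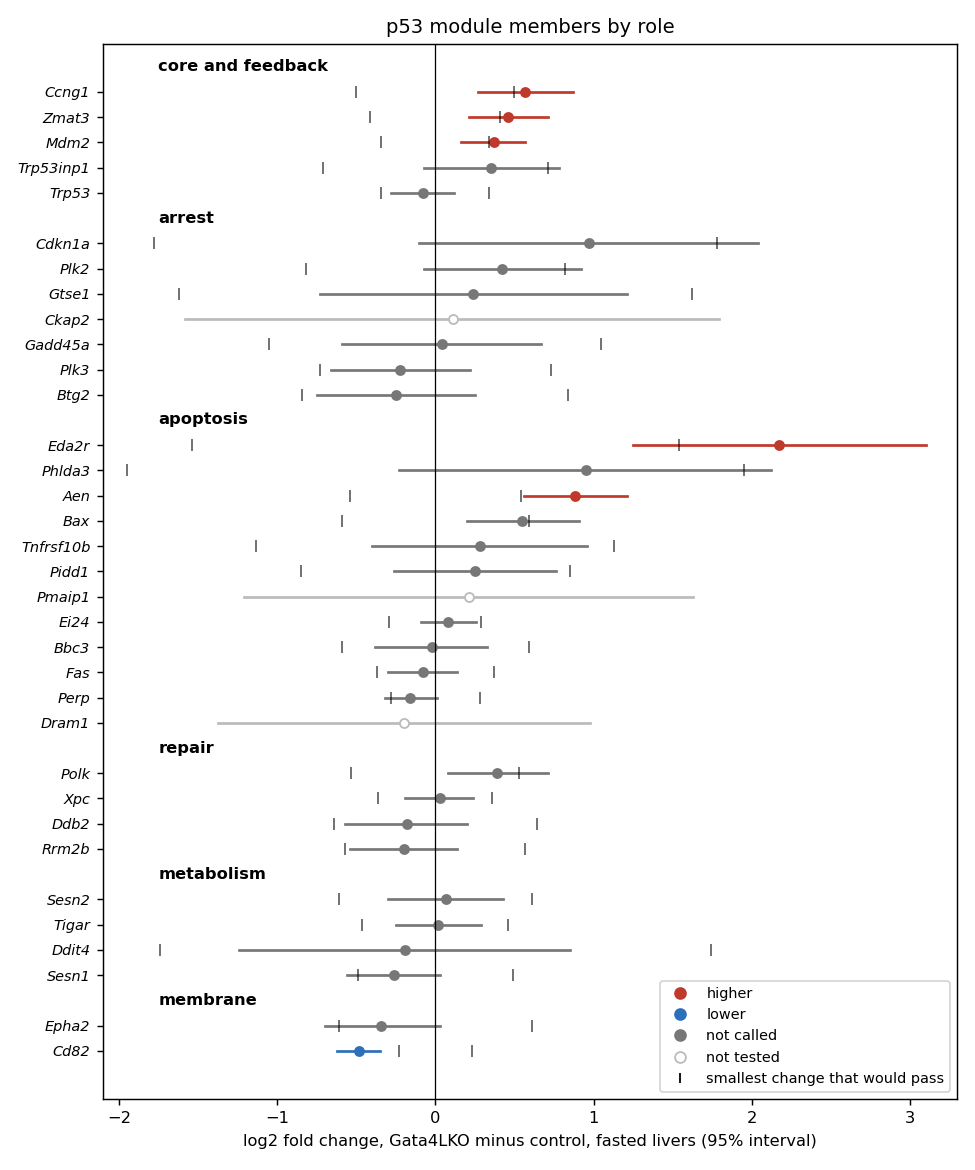
Log2 fold change (Gata4LKO minus control, fasted livers; x axis) of the 34 members by role, as points with 95% intervals from the authors' standard errors; black ticks mark the smallest change that would have been called. The 5 members called higher lie between 0.37 and 2.17, Cd82 lies at -0.48, and the interval of Cdkn1a runs from -0.10 to 2.04.

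Promoter sequences were searched for the site that p53 binds, because the members were assembled as its targets. RefSeq windows (build GRCm38.p6, 250 bases before to 50 bases after an annotated start) existed for 26 members in 36 windows. Ddb2, Perp, Pmaip1, Rrm2b, Tnfrsf10b, Trp53inp1, Xpc and Zmat3 had none. The search took the p53 consensus half-site of 10 bases, which reads the same on both strands. A pair was counted when its half-sites lay 0 to 13 bases apart, each kept its central C and G, and at most 3 other bases departed from the consensus. Such a pair stood in 15 of the 36 member windows (41.7%) and in 15.6% of all 32851 windows, and an exact half-site stood in 36.1% and 8.36%. The sequences below show the pairs, or for Mdm2 the lone half-site, of the called members that had one. Pairs of 3 uncalled members, Cdkn1a, Bax and Gtse1, are shown as well. Pairs not shown were those of Gadd45a, Sesn1 and Ckap2, with 2 mismatches, and of Bbc3, Plk3, Tigar and Trp53, with 3. Each is written 5′ to 3′ on the strand of its gene, with half-sites in capitals. Positions are counted from 0 at the annotated start, with negative numbers upstream.
Ccng1: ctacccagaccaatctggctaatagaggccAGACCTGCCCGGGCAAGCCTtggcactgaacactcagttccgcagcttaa
Mdm2: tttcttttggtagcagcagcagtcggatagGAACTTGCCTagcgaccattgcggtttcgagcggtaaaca
Aen: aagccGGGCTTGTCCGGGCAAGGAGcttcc
Cd82: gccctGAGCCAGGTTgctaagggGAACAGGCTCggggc
Cdkn1a: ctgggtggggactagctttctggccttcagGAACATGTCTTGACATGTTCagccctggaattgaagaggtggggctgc
Bax: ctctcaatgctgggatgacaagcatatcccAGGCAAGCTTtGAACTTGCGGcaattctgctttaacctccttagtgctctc
Gtse1: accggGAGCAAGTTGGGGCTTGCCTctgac
The Ccng1 stretch (chr11:40755432-40755511, minus strand) holds adjacent half-sites with 1 mismatch from position -195. The Mdm2 stretch (chr10:117710905-117710974, minus strand) has 1 exact half-site at -186 and no pair within the limit. Aen (chr7:78895932-78895961, plus strand) holds a pair with 3 mismatches, at -121 from the later of its annotated starts. The pair of Cd82 (chr2:93462973-93463010, minus strand) has 3 mismatches and a spacer of 8 bases. It lies in the window of the most upstream annotated start of Cd82, whose other windows held no pair within the limit. Cdkn1a (chr17:29090898-29090975, plus strand) has an adjacent pair with 1 mismatch, at -51 from the more upstream of its annotated starts. The first half-site of this pair also forms a pair without mismatch with another 12 bases upstream. The window at the later start of Cdkn1a held no pair within the limit. Bax (chr7:45467049-45467129, minus strand) has 2 mismatches and a spacer of 1 base, and Gtse1 (chr15:85859940-85859969, plus strand) has 1 mismatch and no spacer. The Gtse1 pair lies at the later of its annotated starts, and the window at the other start held none. No window of Eda2r held a pair or an exact half-site.

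**Figure D2:**
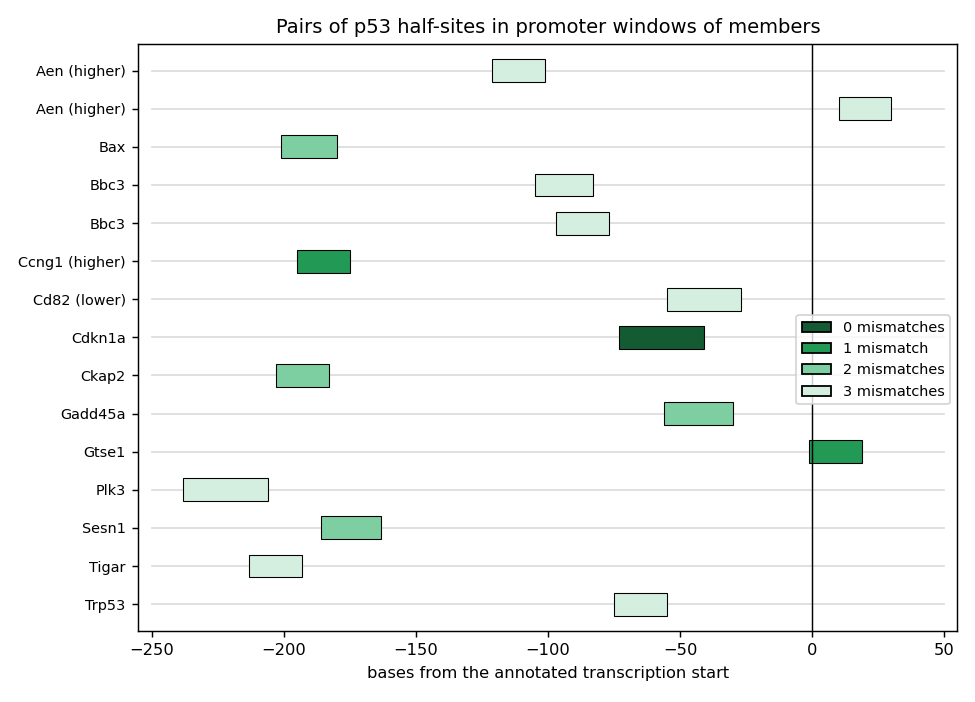
Position of the best pair of p53 half-sites in each member window that has one; the x axis is in bases from the annotated start and the shade gives the number of mismatches. Pairs start between -238 and 10, and members called carry "higher" or "lower" beside the name.

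Calls fell on members with and without such a pair. Of 13 members with a pair in any window, 12 were tested, 2 were higher and 1 lower, with a median log2 fold change of 0.03. Of 13 members whose windows held no pair, 12 were tested and 2 were higher, with a median of 0.17. Sequence outside the windows, such as introns or regions farther upstream, was not searched. A member without a pair here, such as Mdm2 or Eda2r, may therefore hold one elsewhere. A match of letters is a description of these windows and says nothing of binding in these livers.

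In the core and feedback group, 3 of 5 members were higher, 0 were lower and 2 were not called (median log2 fold change 0.37). Trp53 RNA was not among them. Trp53 (ENSMUSG00000059552, chromosome 11, 69580359 to 69591873 in mm10) averaged 320 normalized counts, with a log2 fold change of -0.08 ± 0.10 (SE, the authors' deposited table). Its 95% interval, from -0.28 to 0.12, is among the narrower ones of the module; the amount of p53 protein was not measured.

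Mdm2, the ubiquitin ligase that p53 induces and that degrades p53, was higher in livers labelled Gata4LKO. In the authors' deposited table Mdm2 (ENSMUSG00000020184, chromosome 10, 117688875 to 117710758) averaged 870 normalized counts, with a log2 fold change of 0.37 ± 0.10 (SE), a fold of 1.29, with an adjusted p of 0.0225 (DESeq2). Ccng1, which encodes cyclin G1, a partner of protein phosphatase 2A that acts on Mdm2, had a mean of 963 normalized counts and rose by 0.57 ± 0.15 (SE) on the log2 scale in the authors' deposited table (fold 1.49, adjusted p 0.0148, DESeq2). It lies on chromosome 11, 40748552 to 40755311, and its promoter pair, shown above, has 1 mismatch. Zmat3, a zinc finger RNA-binding protein that acts on the Trp53 message and on splicing, rose by 0.46 ± 0.13 (SE, the authors' deposited table) (chromosome 3, 32334792 to 32366014, fold 1.38, adjusted p 0.0173, DESeq2). These 3 changes were modest: the smallest log2 change that would have been called for each was 0.34, 0.50 and 0.41. All 3 calls were lost with the stricter Benjamini-Yekutieli adjustment, where the adjusted p was 0.226 for Mdm2, 0.149 for Ccng1 and 0.174 for Zmat3, and with a required fold of 1.5. Trp53inp1, a stress-induced nuclear protein that promotes p53 activity and autophagy, was estimated at 0.35 ± 0.22 (SE, the authors' deposited table), short of a call. Its SE exceeded that of 96.6% of the 500 tested genes nearest to it in mean.

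None of the 6 tested arrest genes was called by the authors' DESeq2 Wald test, and 0 had an unadjusted p under 0.05 (median log2 fold change 0.14). Cdkn1a, which encodes the cyclin-dependent kinase inhibitor p21 and is the best known arrest target of p53, had the largest estimate of the group, 0.97 ± 0.54 (SE, the authors' deposited table). That is a fold of 1.96 with a 95% interval on the log2 scale from -0.10 to 2.04, an adjusted p of 0.510 (DESeq2) and a mean of 479 normalized counts. The SE of Cdkn1a was larger than in 99.2% of the 500 tested genes of nearest mean, whose median SE was 0.10, so that only a log2 change of 1.78 would have been called. A rise of the size seen in Aen or Ccng1 would therefore not have been called in Cdkn1a.

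Plk2 and Plk3, polo-like kinases of the stress checkpoints, had log2 fold changes of 0.42 ± 0.25 and -0.22 ± 0.22 (SE, the authors' deposited table). Btg2, an antiproliferative cofactor of messenger RNA decay, stood at -0.25 ± 0.26 (SE) there, and Gadd45a, which binds PCNA and stress kinases, at 0.04 ± 0.32 (SE). Each of these 4 had an SE above that of at least 94.2% of genes of similar mean, the lowest of them being Gadd45a. Gtse1, a microtubule-bound protein of dividing cells that carries p53 out of the nucleus, was scarce, at 9.03 normalized counts, with a log2 fold change of 0.24 ± 0.50 (SE, the authors' deposited table). Ckap2, a spindle protein with a mean of 3.80, was not tested. Both are genes of dividing cells.

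Apoptosis genes held the largest rise of the module. Of 10 tested, 2 were higher, 0 lower and 8 not called, with a median log2 fold change of 0.26. Eda2r, a receptor of the tumour necrosis factor family that binds ectodysplasin A2, was 4.51-fold higher in livers labelled Gata4LKO. In the authors' deposited table its log2 fold change was 2.17 ± 0.47 (SE), with a 95% interval from 1.25 to 3.10 and an adjusted p of 6.69e-04 (DESeq2). Eda2r (chromosome X, 97333840 to 97377216) was a scarce transcript, with a mean of 19.9 normalized counts, or 3.38 per kilobase of exon, a level below that of all but 5.7% of tested genes. Aen, a nuclease that cuts DNA during apoptosis, was the other. It averaged 280 normalized counts, with a log2 fold change of 0.88 ± 0.17 (SE, the authors' deposited table) (chromosome 7, 78895854 to 78911209, fold 1.85, adjusted p 2.60e-05, DESeq2).

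Bax, the pore-forming effector of mitochondrial apoptosis, came closest to a call without passing. The authors' deposited table gives it 113 normalized counts, a log2 fold change of 0.55 ± 0.18 (SE), an unadjusted p of 0.00221 and an adjusted p of 0.0771 (DESeq2). Its annotated exons share 192 bases, 12.2% of their length, with Gm45808 on the same strand, so its counts are uncertain to that extent. Phlda3, which holds back the kinase Akt, had an estimate of similar size to Cdkn1a, 0.95 ± 0.60 (SE, the authors' deposited table), at only 13.1 normalized counts. Its 95% interval ran from -0.23 to 2.12.

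The initiators of apoptosis that p53 is known for were not called. Bbc3, which encodes the BH3-only protein PUMA, had a log2 fold change of -0.02 ± 0.18 (SE, the authors' deposited table), with an interval from -0.38 to 0.33. Fas, a death receptor, stood at -0.08 ± 0.11 (SE, the authors' deposited table), and its interval ended at 0.14. Tnfrsf10b, the mouse receptor for the death ligand TRAIL, stood at 0.28 ± 0.35 and Pidd1, a scaffold that activates caspase-2, at 0.25 ± 0.26 (SE, the authors' deposited table). The membrane proteins Perp and Ei24, of desmosomes and of the endoplasmic reticulum, were the most abundant members per kilobase of exon, at 765 and 951 normalized counts. Their log2 fold changes were -0.16 ± 0.09 and 0.08 ± 0.09 (SE, the authors' deposited table), with intervals that stay within 0.32 of 0. Pmaip1, which encodes the BH3-only protein NOXA, and Dram1, of lysosomes and autophagy, had means of 5.02 and 8.15 and were not tested.

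None of the 4 repair genes was called by the authors' DESeq2 Wald test, and 1 had an unadjusted p under 0.05 (median log2 fold change -0.08). That gene was Polk, a DNA polymerase that copies past damaged bases, at 0.39 ± 0.16 (SE, the authors' deposited table) with an adjusted p of 0.243. Xpc and Ddb2, which recognize bulky lesions for nucleotide excision repair, stood at 0.03 ± 0.11 and -0.18 ± 0.20 (SE, the authors' deposited table). Rrm2b, the ribonucleotide reductase subunit that supplies nucleotides for repair in resting cells, stood at -0.20 ± 0.17 (SE) there. The exons of Ddb2 share 652 bases, 23.8% of their length, with Acp2 on the opposite strand, and whether the authors counted by strand is not stated in the labels. Opposite-strand genes also overlap 19.1% of the exon length of Gadd45a, 8.0% of Rrm2b, 7.7% of Cdkn1a, 6.7% of Ei24 and 3.3% each of Plk3 and Tigar, so their counts are uncertain to that extent.

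The 4 metabolic members were not called either (DESeq2 Wald test, 0 at an unadjusted p under 0.05, median log2 fold change -0.09). Sesn1 and Sesn2, the sestrins that restrain mTORC1 and oxidants, had log2 fold changes of -0.26 ± 0.15 and 0.07 ± 0.19 (SE, the authors' deposited table). Tigar, a phosphatase that lowers fructose bisphosphate signals and glycolysis, stood at 0.02 ± 0.14 (SE) with an interval from -0.25 to 0.29 in the authors' deposited table. Ddit4, an inhibitor of mTORC1 that glucocorticoids and hypoxia also induce, was estimated at -0.19 ± 0.53 (SE, the authors' deposited table). Its SE, larger than in 99.4% of genes of similar mean, was the highest placed of the module beside that of Cdkn1a.

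On the cell surface, Cd82 was lower in livers labelled Gata4LKO, against the direction of the other calls. Cd82 encodes a tetraspanin that restrains cell movement and is counted as a metastasis suppressor. In the authors' deposited table it had a mean of 749 normalized counts, a log2 fold change of -0.48 ± 0.07 (SE), a fold of 0.715 and an adjusted p of 7.15e-09 (DESeq2), the smallest p of the module (chromosome 2, 93419111 to 93463140). Its SE was among the smallest for its mean, above that of only 10.6% of similar genes. Leukocytes also express Cd82. All 12 tested macrophage markers had estimates below 0 (median -0.27, range -0.50 to -0.04), with 0 called by the authors' DESeq2 Wald test and 1 at an unadjusted p under 0.05. The summed mean of these markers was 2626 normalized counts and none was at 0. Of 9 lymphocyte markers 3 were tested, all with estimates below 0, and 0 were called by the same test, with 2 at an unadjusted p under 0.05. These 2, Cd4 and Cd3e, were scarce, at means of 15.2 and 8.44 normalized counts. The untested lymphocyte markers, scarcer still, had estimates on both sides of 0, from -1.51 to 0.55. The part of leukocytes in the value of Cd82 was not tested. Epha2, an ephrin receptor tyrosine kinase, stood at -0.34 ± 0.19 (SE, the authors' deposited table), short of a call.

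The members differed in how much these livers could show. Of 31 tested members, 25 had an SE above the median of the 500 tested genes nearest in mean, and their median place was the 73.2nd percentile. Among the role groups the arrest genes had the widest SEs for their level, with a median at the 95.8th percentile, and repair genes lay at the 54.2nd. The SE comes from the authors' model of all 15 libraries, so spread among refed livers enters it too. For 7 members a log2 change of 1 would not have been called. Of the 25 uncalled members, 21 had a 95% interval that lay between -1 and 1, so that for those a 2-fold change in either direction falls outside the interval.

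**Figure D3:**
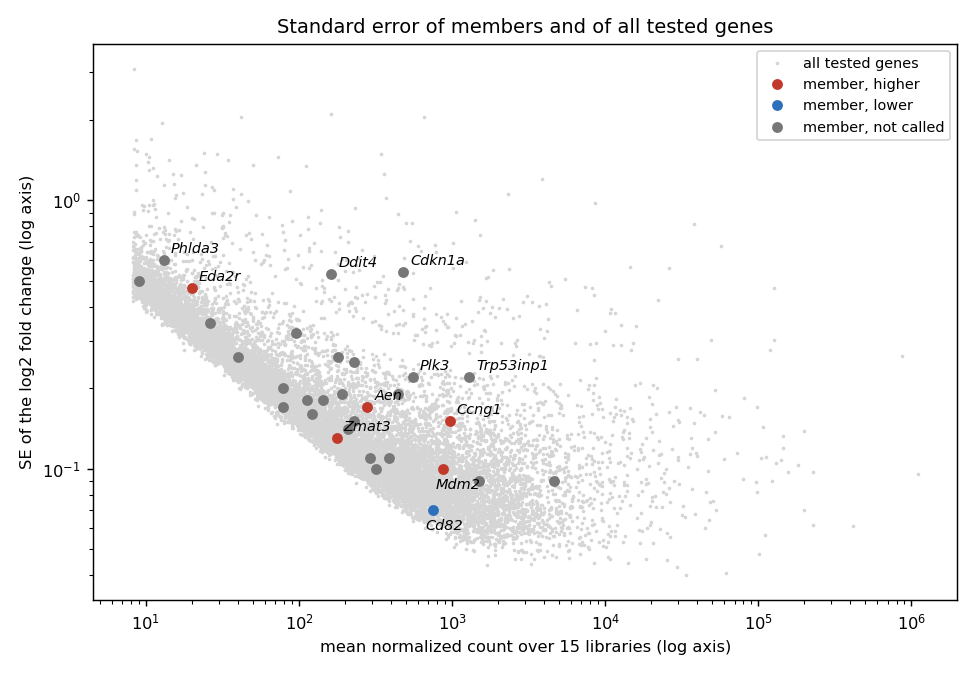
Standard error of the log2 fold change (y, log axis) against the mean normalized count over 15 libraries (x, log axis) for all tested genes in grey and for the tested members in colour by call. Cdkn1a, at an SE of 0.54, and Ddit4, at 0.53, stand far above genes of similar mean. Cd82, at 0.07, lies toward the lower side, above 10.6% of the 500 tested genes nearest in mean.

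Genes of 7 other lists, 4 of the p53 pathway and DNA damage and 3 of proliferation, the integrated stress response and glucocorticoid action, numbered 144 tested without the members, of which 4 were higher and 1 lower, or 3.47%. Of 36 tested further p53 targets, 2 were higher, 1 was lower and 33 were not called, and the median log2 fold change was 0.03. By the authors' DESeq2 Wald test 11 of them had an unadjusted p under 0.05, 7 higher and 4 lower. That is 30.6%, beside 11.4% of all tested genes. Those called higher were Gdf15, a secreted stress hormone, at 2.26 ± 0.39 (SE), and Ephx1, the microsomal epoxide hydrolase, at 0.57 ± 0.13 (SE, the authors' deposited table). Mdm4 and Ppm1d, which like Mdm2 restrain p53, both stood at 0.03 in the authors' deposited table, with SEs of 0.08 and 0.20. Rps27l, a ribosomal protein paralog induced by p53, just missed the threshold at 0.32 ± 0.10 (SE) and an adjusted p of 0.0548 (DESeq2) in the authors' deposited table. Fdxr, of the same list, lay in the other direction, at -0.34 ± 0.13 (SE) and an adjusted p of 0.174 (DESeq2) there. Mdm4, Ppm1d, Rps27l and Fdxr were named after their values were seen.

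Genes upstream of p53 showed no calls, but lists this short would hold few or none at the 2.19% called of all tested genes. An unadjusted p under 0.05 (DESeq2 Wald test) stood at 13.6% of the damage sensors and 11.1% of the p53 regulators, beside 11.4% of all tested genes. In the authors' DESeq2 results 0 of 22 tested damage sensors and checkpoint kinases were called, with 3 at an unadjusted p under 0.05 and a median of -0.02. Wee1, a kinase that delays mitosis and that the clock also drives, had the smallest p, at -0.93 ± 0.31 (SE) and an adjusted p of 0.0823 (DESeq2) in the authors' deposited table. Atm and Atr, the kinases that signal broken and unreplicated DNA, stood at -0.07 ± 0.13 and 0.09 ± 0.08 (SE, the authors' deposited table); they were named after their values were seen. Regulators of p53 gave 0 calls among 18 by the same test, 2 at an unadjusted p under 0.05, and a median of 0.05. Their smallest p were of Ppp1r13b, at -0.31 ± 0.13, and the deacetylase gene Sirt1, at -0.26 ± 0.12 (SE, the authors' deposited table). Of 29 tested DNA repair enzymes 1 was higher, Mgmt, which removes alkyl groups from guanine, at 0.49 ± 0.14 (SE) and an adjusted p of 0.0387 (DESeq2) in the authors' deposited table. Adjusted over every gene that had a p, it was 0.0722.

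Proliferation and other stress genes were set beside the module because some share members with it. Over all tested genes, 2.19% were called and 11.4% had an unadjusted p under 0.05 (DESeq2 Wald test). Of 15 tested proliferation genes 0 passed the DESeq2 Wald test of the authors, with 2 at an unadjusted p under 0.05, both lower, and a median of -0.04. These were the replication genes Mcm3 and Mcm5, at -0.55 ± 0.22 and -0.85 ± 0.40 (SE, the authors' deposited table). The other 7 of the 22 proliferation genes, such as Top2a, were too scarce to be tested. In the integrated stress response, which also acts on Sesn2 and Ddit4, 1 of 15 tested genes was higher, the lipoprotein receptor gene Vldlr at 0.58 ± 0.16 (SE). By the authors' DESeq2 Wald test 4 of the 15, or 26.7%, had an unadjusted p under 0.05, 2 higher and 2 lower. Fgf21 just missed the threshold, at 1.10 ± 0.34 (SE) and an adjusted p of 0.0505 (DESeq2). Atf4 stood at -0.01 ± 0.11 (SE, the authors' deposited table). Glucocorticoid targets gave 0 calls among 12 by the authors' DESeq2 Wald test, 2 at an unadjusted p under 0.05 and a median of -0.14. Their smallest p were of Klf9, at -0.25 ± 0.10, and Mt2, at -1.28 ± 0.64 (SE, the authors' deposited table). Atf4, Fgf21 and Top2a were named after their values were seen. Hepatocyte markers had a median of 0.09 and 1 call among 8, of Apoa1 at -0.48 ± 0.11 (SE, the authors' deposited table). Their summed mean was 1478477 normalized counts. Endothelial, bile duct and stellate cell markers had medians of 0.21, -0.05 and 0.03, with 0 calls among 9, 5 and 9 tested genes in the authors' DESeq2 results and 3, 0 and 1 at an unadjusted p under 0.05. No neutrophil marker had enough counts to be tested.

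**Figure D4:**
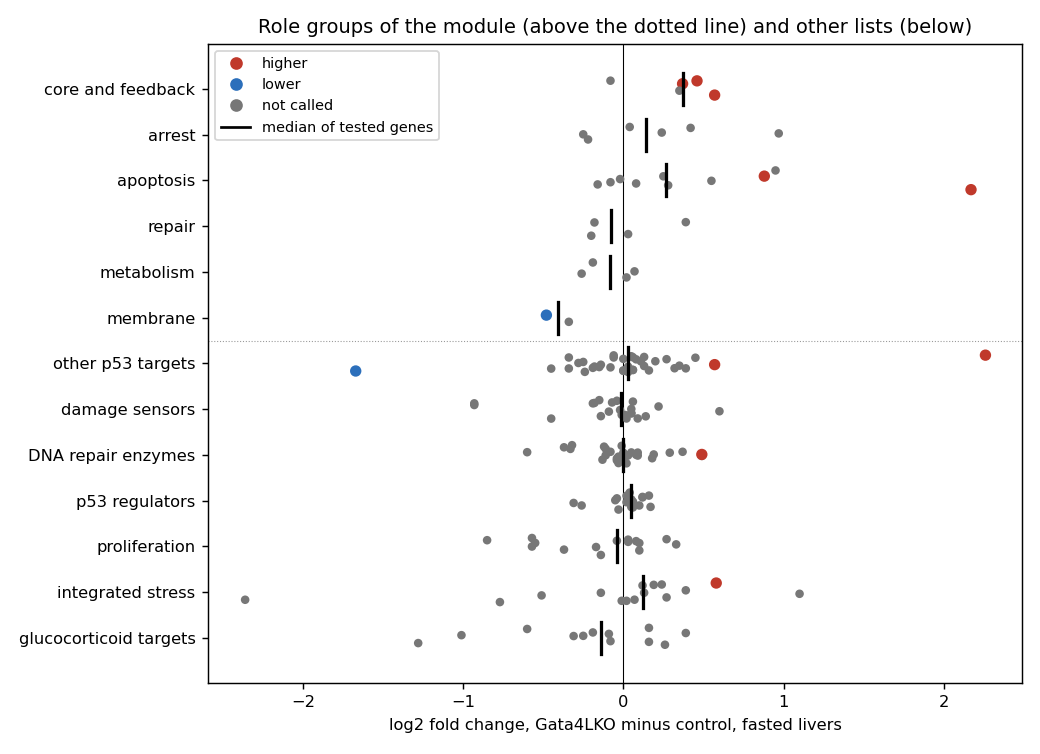
Log2 fold change (Gata4LKO minus control, fasted livers; x axis) of each tested gene, by role group of the module above the dotted line and by other lists below it, with called genes in colour and the median of each list as a black bar. Medians of the lists below the line lie between -0.14 and 0.12. Above it, core and feedback genes have a median of 0.37, apoptosis genes 0.26 and arrest genes 0.14. Repair genes have -0.08, metabolism genes -0.09 and the membrane (cell surface) genes -0.41.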

How the data were processed

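RNA of 15 livers was sequenced from stranded libraries, per the labels' protocols. FastQC, STAR 2.6.0c, DESeq2 and the mm10 genome are credited to the authors in the submitters' processing notes. Which program counted reads, by which annotation and whether by strand, is not given in the sources used here. What the authors deposited is a table of results with no values per sample. In it, the authors' mean is a normalized expression signal averaged over libraries, and the deposited effect and SE are log2 values. The ratio of both is the deposited Wald score. The deposited p-values were adjusted by the authors over 13335 genes, which a recomputation gave again. A further 11605 genes have a p without an adjusted one, and the lowest mean with an adjusted p was 8.20.

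The header names no groups. Genes with 1 read in 1 library gave the relative size factors, and 40 ways to read the table were fitted to these genes by ridge-penalized negative binomial regression. Of these, 2 matched the deposited estimates within 1e-12 and the next differed by 2.64e-05. They are the effect of Gata4LKO against control when fasted, and the effect of refeeding in controls. The first was taken, because the result is named for genotype and because 0 of 12 genes of the fasting response passed the DESeq2 Wald test of the authors (2 at an unadjusted p under 0.05). Fasn, which feeding induces, was called lower, at -0.77 ± 0.18 (SE, the authors' deposited table). Every direction rests on this choice.

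Members and lists were chosen with earlier results of these data known. Named genes were all members, Gata4 and, of each other list, the called genes or else at most 2 of smallest p; others are marked in the text. The values of 1 gene of the lists are not reported here. Intervals of 95% are the estimate ± 1.96 SE. Exon lengths, overlaps and gene coordinates come from GENCODE M21 (mm10), and promoters from RefSeq. Adjustments made here used scipy 1.17.1 and, like the motif search, were tested on simulated data. Alternatives were other adjustments, filters and thresholds. How far samples of a group are independent is not stated, so p-values measure the spread between these samples.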

Additional observations from a re-analysis of the deposited data

How the results depend on the processing

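The same 6 members were called when the adjustment took in all genes that had a p, when it took genes averaging 10 or more normalized counts, and among protein coding genes. At means of 100 or more the count was 5, without Eda2r, which that filter leaves out, and at an adjusted p under 0.1 it was 7, with Bax added. Asking also for a fold of at least 1.5 left 2 members (Eda2r and Aen), 157 of all 292 genes called and 2 of the 5 genes called in the 7 other lists, which include proliferation, integrated stress and glucocorticoid genes. The Benjamini-Yekutieli adjustment left 3 members (Eda2r, Aen and Cd82), 127 of all genes and 3 in the other lists, where an adjusted p under 0.1 gave 8. Removing the trend of the log2 fold change with mean level moved members by at most 0.04 and turned 0 directions.

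No paired analysis was possible because no single liver has a value in the table. Leaving out single livers and TMM normalization were not run for that reason, and a second row per symbol gave no value since no listed symbol repeats. Depth limits Eda2r, Phlda3 and Gtse1, whose means were 19.9, 13.1 and 9.03 normalized counts.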

Other observations

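Standard errors that were wide for the mean level occurred among the arrest genes of the module and among glucocorticoid targets. The 12 glucocorticoid targets had a median SE at the 98.6th percentile of the 500 tested genes nearest in mean, beside the 95.8th for the 6 tested arrest genes. The metallothionein genes Mt1 and Mt2 had log2 fold changes of -1.01 ± 0.56 and -1.28 ± 0.64 (SE, the authors' deposited table). In the integrated stress list, Asns, of asparagine synthesis, stood at -2.36 ± 0.87 (SE, the authors' deposited table) with an adjusted p of 0.154 (DESeq2). These genes and the percentiles were chosen after their values were seen.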
